A study of Mus musculus with 6 samples.

Results

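Skint genes encode membrane proteins with an immunoglobulin-type extracellular part followed by several membrane-spanning segments, related to the butyrophilins. The symbol stands for selection and upkeep of intraepithelial T cells. In the mouse, Skint1, the founding member, is made by thymic epithelium and by keratinocytes of the skin. It is required for the fetal thymus to produce the gamma-delta T cells that settle in the epidermis as dendritic epidermal T cells, the resident lymphocytes that watch over keratinocytes. The roles of most other Skint genes are less well known.

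The Skint family is described here in back skin of E15.5 mouse embryos, the stage at which the epidermis is stratifying. Of 55401 gene identifiers in the deposited count table, 11 carry a Skint symbol followed by a number. The 7 members described are those with a count of at least 10 in at least 3 of the 6 libraries: Skint1, Skint2, Skint5, Skint6, Skint7, Skint8 and Skint10. Skint3, Skint4, Skint9 and Skint11 fell short of it. The members were therefore chosen from the counts of the same libraries that are compared, and their differences are given as a description, with no test.

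RNA was taken from 3 control embryos and 3 Prmt5 cKO embryos, with 1 embryo in each library. Prmt5, an arginine methyltransferase of histones and splicing proteins, is the gene deleted in the cKO. The series title places the loss in the epidermis. The labels give neither the Cre line nor the alleles the controls carry. The deposited comparison carries the name Prmt5CRECTvsCTRL, which the labels do not explain. The skin was sequenced whole, epidermis and dermis mixed, so fewer keratinocytes and less RNA per keratinocyte cannot be told apart. The controls held 3094, 2656 and 2384 Prmt5 counts, and cKO 1 to cKO 3 held 1271, 1817 and 1258. The log2 fold change was -1.07 ± 0.19 (SE), at an adjusted p of 0.00292 (edgeR, quasi-likelihood test). With libraries scaled to 15 epithelial genes that adjusted p was 0.963, within a range of 2.42e-05 to 0.963 over 13 alternatives.

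All 7 members were present in every control library and close to absent in every cKO library. Their counts summed to 1431, 1976 and 1052 in control 1, control 2 and control 3, and to 6, 0 and 0 in cKO 1, cKO 2 and cKO 3. Depth-scaled counts (CPM, counts per 1000000 of a library size scaled by TMM, the trimmed mean of M-values) summed to 32.2, 29.8 and 29.9 in the controls, a mean of 30.7 ± 1.37 (SD, n = 3). In the cKO the sum was 0.0426 ± 0.0738 CPM (SD, n = 3), and all of it came from cKO 1. No control value of any member lay within the range of the cKO values. All 7 were also below the adjusted p of 0.05 in edgeR's fit of all genes, where 19.6% of the 19227 genes tested were lower in the cKO and 16.3% higher, 35.9% in all. Nothing is read from that count, since the members were picked on these counts and entered the fit through their control libraries alone. Among all genes tested, 26.6% had groups that did not overlap with the cKO lower, and 0.38% had no cKO count while reaching 10 in at least 3 libraries, as 5 of the 7 members did.

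**Figure D1:**
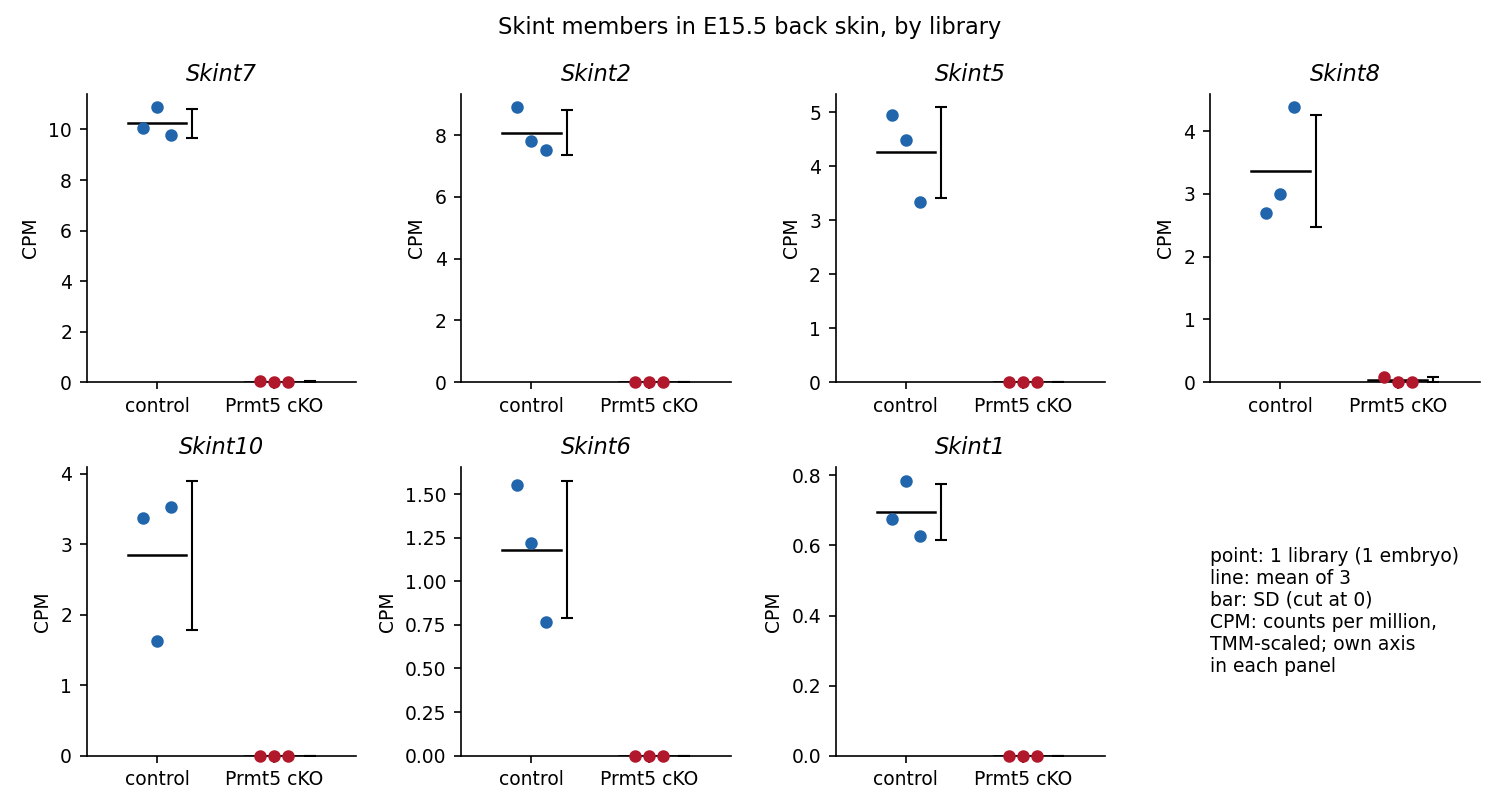
CPM of each Skint member in the 3 control and 3 Prmt5 cKO libraries, each panel with its own axis from 0; points are libraries, lines are means and bars the SD of 3 libraries. Skint7 lies between 9.79 and 10.9 CPM in the controls and Skint1 between 0.626 and 0.785 CPM, while only the first cKO library has any signal, in Skint7 and Skint8.

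Skint1 (ENSMUSG00000089773.7), on chromosome 4 at 112006269 to 112029538 on the plus strand (GENCODE M21 annotation of GRCm38), had the lowest counts of the 7 members. Control libraries held 30, 52 and 22 counts, or 0.676, 0.785 and 0.626 CPM, and 0 in all 3 cKO libraries. It is also the member nearest the count minimum. Against a floor of 3 counts in each cKO library, Skint1 was at least 11.7-fold lower in the cKO.

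Skint2 (ENSMUSG00000034359.16, chromosome 4, 112557194 to 112652248, plus strand) had 395, 518 and 264 control counts and 0 in every cKO library. In CPM the control libraries measured 8.90, 7.82 and 7.51. Its lower bound of at least 136-fold was the highest among the 5 members without a cKO count.

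Skint7 (ENSMUSG00000049214.13, 111972923 to 111988223, plus strand) and Skint8 (ENSMUSG00000078599.9, 111919392 to 111950358, plus strand) are neighbours at the start of the gene cluster on chromosome 4. Skint7 had 447, 721 and 344 control counts, against 2, 0 and 0 in the mutants. Skint8 had 120, 199 and 154 control counts, against 4, 0 and 0. These 6 counts in cKO 1 were the whole Skint signal of the mutant group. The ratio of control to cKO was 793 for Skint7, with a 95% counting interval of 219 to 6558, and 124 for Skint8, with an interval of 48.2 to 457. Both ratios rest on cKO 1, and without that library neither gene had a cKO count. The intervals pool the counts of each group and leave out variation between embryos. They also treat each count as 1 read, although a count may be less than that, so they may be too narrow.

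Skint5 (ENSMUSG00000078598.11, 113477891 to 113999503) and Skint6 (ENSMUSG00000087194.9, 112804616 to 113286973) lie on the minus strand and are the longest of the family, with spans of 521.6 kb and 482.4 kb. For Skint5 the controls held 220, 297 and 117 counts, or 4.96, 4.48 and 3.33 CPM. Skint6 counts were 69, 81 and 27, or 1.55, 1.22 and 0.768 CPM. For both genes control 1 was the highest in CPM and control 3 the lowest, and every cKO library was at 0. Skint5 was at least 71.5-fold and Skint6 at least 19.9-fold lower in the cKO. Their transcripts hold up to 59 and 49 annotated exons in 4590 and 3824 exonic bases, so they consist of many short exons spread over long introns, whereas no other member has more than 8.

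Skint10 (ENSMUSG00000048766.6, 112711147 to 112774866, minus strand) varied most among the controls. Its counts were 150, 108 and 124, or 3.38, 1.63 and 3.53 CPM, so that control 2 measured less than the other two although it is the deepest library. All 3 cKO libraries were at 0, and the bound was at least 47.8-fold.

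The 4 genes that fell short of the minimum differed from one another as well. Skint3, Skint4 and Skint9 were listed at 0 in all 6 libraries. A count of 0 allows up to 3 counts, which is 0.0854 CPM in the shallowest library, control 3. Skint11 had 3, 5 and 0 control counts and none in the cKO, too few for a fold.

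A list of epithelial genes was also lower in sum in the cKO libraries. Log2 fold changes within it ran from -3.22 to 0.70, and whether the sum measures all epithelial RNA was not tested. Summed CPM of 15 genes expressed in all epithelial layers went from between 1872 and 2039 in the controls to between 924 and 957 in the cKO, a 2.09-fold difference. When libraries were scaled to the counts of these 15 genes, which raises the median log2 fold change of all genes from -0.01 to 1.05, the bounds became 64.8-fold for Skint2, 34.0-fold for Skint5, 23.0-fold for Skint10, 9.41-fold for Skint6 and 5.58-fold for Skint1. The ratios became 378 for Skint7, with a counting interval of 105 to 3126, and 59.2 for Skint8, with an interval of 23.0 to 218. In the authors' deposited table the DESeq2 log2 fold changes of the members run from -11.10 for Skint2 to -6.97 for Skint8. For the members with no cKO count these fitted values depend on the method and are no measure of size.

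Levels of different genes were compared per kilobase of annotated exon. In the controls Skint2 stood at 3.39 ± 0.306 CPM per kb and Skint7 at 2.57 ± 0.142 CPM per kb (SD, n = 3). Every control library placed Skint2 above Skint7, and the ranges did not overlap. Skint5 followed at 0.927 ± 0.182, Skint10 at 0.761 ± 0.282 and Skint8 at 0.722 ± 0.192 CPM per kb. Within these 3 genes neighbouring ranges overlapped, so their order is not resolved by 3 libraries, while Skint7 lay above and Skint6 below them without overlap. Skint6, at 0.309 ± 0.103, and Skint1, at 0.231 ± 0.0269 CPM per kb, overlapped. By this measure Skint1 had the lowest mean, but in control 3 Skint6, at 0.201, lay below Skint1, at 0.208, so the order of this pair is not resolved either. For the unexpressed genes a count of 3 in the shallowest library would be 0.0622 CPM per kb for Skint9, 0.0222 for Skint3 and 0.0195 for Skint4.

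**Figure D2:**
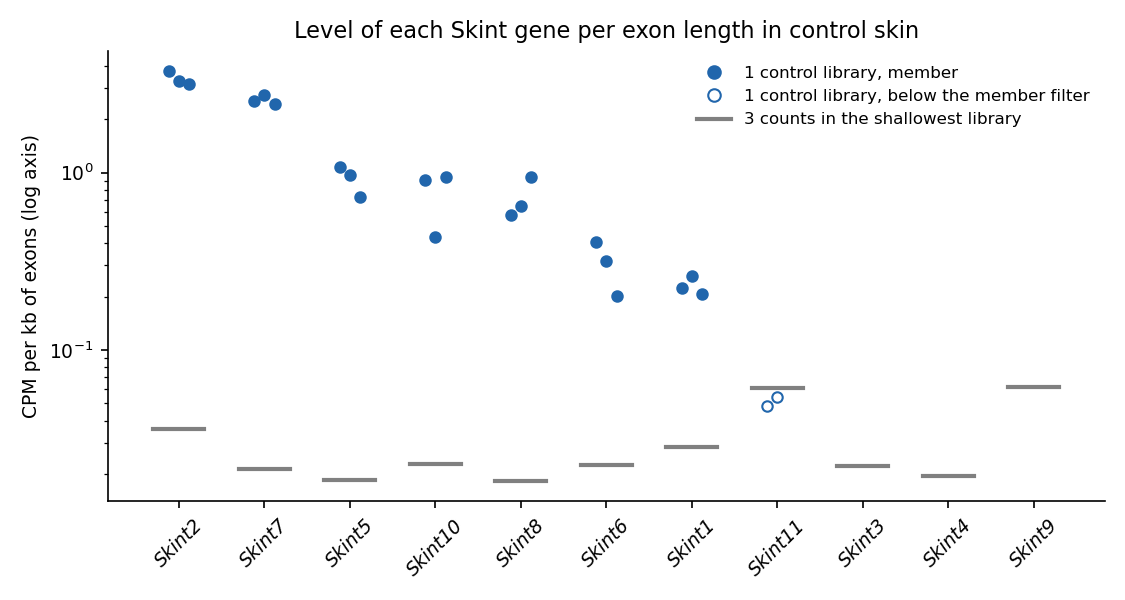
CPM per kb of exons of all 11 Skint genes in the 3 control libraries, on a log axis; grey dashes mark the level that 3 counts give in the shallowest library, and values of 0 are not drawn. Skint2 and Skint7 stand above the other members, Skint11 falls below its dash, and Skint3, Skint4 and Skint9 have no point.

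The members did not rank the control embryos alike. The coefficient of variation of CPM was 5.53% for Skint7, 9.03% for Skint2 and 11.7% for Skint1. It was 19.7% for Skint5, 26.6% for Skint8, 33.4% for Skint6 and 37.1% for Skint10. Relative to each gene's control mean, Skint8 was highest in control 3, at 1.303, where Skint6 was 0.650, and in control 1 the order was turned, with Skint6 at 1.32 and Skint8 at 0.804. Control 3 held the lowest value for 5 of the 7 members, yet the summed level of the family differed little between embryos.

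Skint7 and Skint2 supplied most of that sum. Skint7 took 33.5 ± 2.71% and Skint2 26.3 ± 1.26% of the summed member CPM (SD, n = 3). Skint5 took 13.8 ± 2.36% and Skint10 9.24 ± 3.34%, and Skint8 took 8.39%, 10.1% and 14.6% in the 3 controls. Skint6 and Skint1 made up 3.83 ± 1.15% and 2.27 ± 0.310%. These are shares of counts and not of molecules, since longer transcripts yield more fragments.

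**Figure D3:**
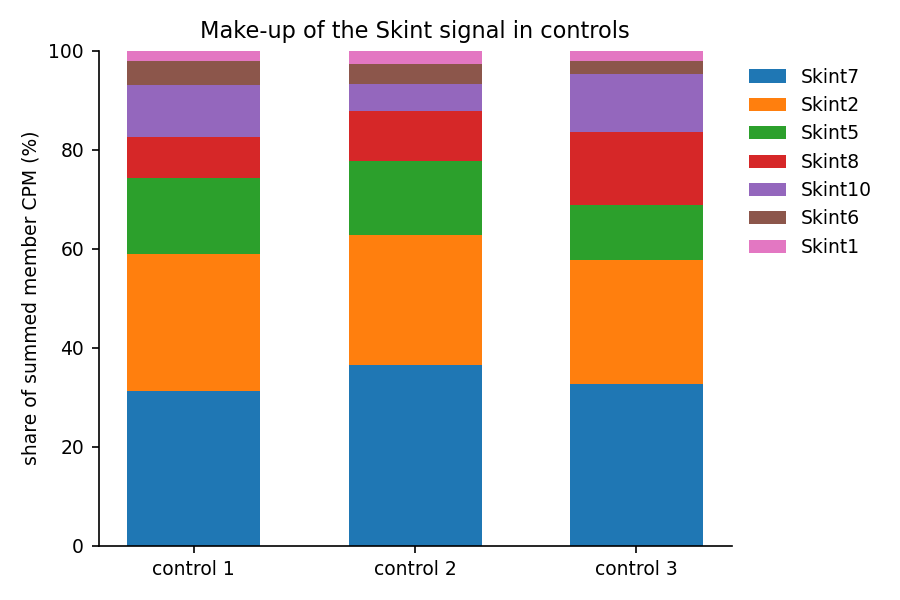
Share of each member in the summed member CPM of the 3 control libraries, in percent. Skint7 and Skint2 together fill more than any other pair of members in each control, and Skint8 takes 8.39% in control 1 and 14.6% in control 3, where Skint6 takes 4.82% and 2.57%.

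Close copies could exchange reads. Of the 50-base stretches in annotated Skint7 transcripts 6.83% also occur in Skint8, and 5.81% of those in Skint8 occur in Skint7. Skint5 shares 3.97% of its stretches with Skint6, which shares 4.64% in return, and Skint2 shares 0.819% with Skint3. Skint1 and Skint10 share none with another Skint gene. How reads in shared stretches were assigned is not given in the sources used here, so the split of counts within the Skint7 and Skint8 pair and the Skint5 and Skint6 pair is uncertain in those stretches.

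The same pairs are visible in the promoters. RefSeq promoter sequences (GRCm38.p6, from 250 bases before to 50 after each annotated start) were found for all 11 Skint genes, Skint4 with 2 starts. The windows of Skint5 and Skint6 are identical at 269 of 300 aligned bases, or 89.7%. They are shown because no other pair of Skint windows has as many identical bases. The windows lie at chr4:113999454-113999753 for Skint5 and chr4:113286924-113287223 for Skint6, both on the minus strand. Each sequence reads 5′ to 3′ along the gene's strand, and capitals mark runs of at least 12 bases found unbroken in the partner.

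Skint5: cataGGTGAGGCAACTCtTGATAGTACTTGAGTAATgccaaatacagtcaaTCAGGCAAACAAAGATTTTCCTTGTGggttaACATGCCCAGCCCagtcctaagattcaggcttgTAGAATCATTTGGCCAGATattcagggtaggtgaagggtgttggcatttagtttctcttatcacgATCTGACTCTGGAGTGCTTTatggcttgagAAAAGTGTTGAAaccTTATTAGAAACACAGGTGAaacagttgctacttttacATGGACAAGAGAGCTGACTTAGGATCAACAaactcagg

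Skint6: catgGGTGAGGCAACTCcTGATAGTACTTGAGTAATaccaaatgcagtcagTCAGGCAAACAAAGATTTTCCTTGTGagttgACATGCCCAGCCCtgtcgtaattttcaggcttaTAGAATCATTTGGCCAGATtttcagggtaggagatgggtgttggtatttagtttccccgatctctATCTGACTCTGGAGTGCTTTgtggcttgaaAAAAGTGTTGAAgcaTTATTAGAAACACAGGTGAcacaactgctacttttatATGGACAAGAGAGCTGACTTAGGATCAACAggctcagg

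Runs of this kind cover 170 of the 300 bases in each, or 56.7%, and the longest is 30 bases. Skint7 and Skint8, the pair with the residual cKO counts, resemble each other over a shorter stretch, 112 identical of 120 aligned bases or 93.3%. Their windows lie at chr4:111972677-111972976 and chr4:111919305-111919604 on the plus strand.

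Skint7: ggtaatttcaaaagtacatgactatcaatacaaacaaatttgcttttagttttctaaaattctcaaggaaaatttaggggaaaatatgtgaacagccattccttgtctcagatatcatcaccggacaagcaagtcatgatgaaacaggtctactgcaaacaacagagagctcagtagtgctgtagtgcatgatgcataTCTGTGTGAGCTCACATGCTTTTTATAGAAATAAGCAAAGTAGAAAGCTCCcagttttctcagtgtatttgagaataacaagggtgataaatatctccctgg

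Skint8: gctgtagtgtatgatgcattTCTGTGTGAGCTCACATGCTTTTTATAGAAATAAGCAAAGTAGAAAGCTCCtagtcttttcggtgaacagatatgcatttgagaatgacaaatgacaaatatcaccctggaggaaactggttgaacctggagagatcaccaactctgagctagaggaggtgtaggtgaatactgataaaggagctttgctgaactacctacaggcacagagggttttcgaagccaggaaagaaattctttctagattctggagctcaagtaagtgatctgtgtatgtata

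A single run of 51 bases is shared. It holds TTTATA, which reads TATAAA on the other strand. The run ends next to the RefSeq start in Skint7. In Skint8 it lies farther upstream of the RefSeq start, but there the GENCODE start lies upstream of the RefSeq start, so the distance depends on the annotation used.

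Skint10 and Skint11 are shown because their promoters are alike, with 213 of 247 aligned bases identical or 86.2%, while their levels are not. Skint10 had at least 108 counts in each control and Skint11 at most 5. The windows are chr4:112774812-112775111 on the minus strand for Skint10 and chr4:114163134-114163433 on the plus strand for Skint11.

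Skint10: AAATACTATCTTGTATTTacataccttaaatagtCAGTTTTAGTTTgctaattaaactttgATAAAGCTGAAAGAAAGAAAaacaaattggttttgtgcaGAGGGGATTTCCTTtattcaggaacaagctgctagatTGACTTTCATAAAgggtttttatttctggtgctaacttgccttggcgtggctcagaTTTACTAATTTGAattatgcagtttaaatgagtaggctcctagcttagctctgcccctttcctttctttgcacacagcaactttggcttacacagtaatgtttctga

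Skint11: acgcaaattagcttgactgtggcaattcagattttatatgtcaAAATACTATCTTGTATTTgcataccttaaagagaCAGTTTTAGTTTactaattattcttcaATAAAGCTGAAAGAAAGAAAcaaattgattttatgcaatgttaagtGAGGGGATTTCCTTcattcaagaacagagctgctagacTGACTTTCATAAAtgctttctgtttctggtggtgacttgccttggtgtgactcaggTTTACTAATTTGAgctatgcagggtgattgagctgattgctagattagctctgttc

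Here the shared runs cover 90 bases, or 30% of each window, with a longest run of 20.

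Motif letters were searched on both strands of these windows and of all 32851 RefSeq promoter windows of the same length. TATAAA was found for 8 of the 11 Skint genes and in 13.6% of all windows. CACCC, a core of sites for Krüppel-like factors, was found for 7 of 11 and in 57.5% of all windows. GGAATG, a TEAD site, was found for Skint4 and Skint7 and in 14.7% of all windows. AACCNGTT, a grainyhead-like site, was found for Skint8 alone and in 2.09% of all windows, and TGANTCA, an AP-1 site, for Skint11 alone and in 7.81%. None of these strings contains another. The run AGTACTTGAGTAAT is held by Skint1, Skint3, Skint4, Skint5 and Skint6. These genes account for all 5 windows that hold the run, 0.0152% of the total. It was found by searching runs of at least 12 bases for those held by the largest number of Skint genes and taking the longest. Its holders include Skint3 and Skint4, which were listed at 0. Many Skint windows resemble one another, so hits among them are not independent, and base composition was not matched. A match of letters is a description and not a site of binding.

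The 11 Skint genes lie together on chromosome 4 between 111919392 and 114245028, a span of 2.33 Mb, 7 on the plus and 4 on the minus strand. The expressed and the unexpressed genes are interleaved, since Skint4, Skint3 and Skint9 lie between Skint1 and Skint2. Of 14 other annotated genes between the Skint genes, mostly pseudogenes, 12 were at 0 in all libraries and 1 was tested. That was Gm12816, a processed pseudogene inside the span of Skint6, with control counts of 245, 342 and 318 and cKO counts of 147, 369 and 399. Its log2 fold change of -0.13 did not pass the test, and the groups overlapped within the same interval in which Skint6 had no cKO count. Without strand and multi-mapping details of the counting, reads of such a copy cannot be placed with certainty.

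Of the 41 genes within 1 Mb of the cluster's ends or inside it, 12 were tested. In the cKO 3 fell and 9 did not pass the adjusted p of 0.05 in edgeR, where 19.6% of all genes tested were lower, so the count of 3 is near that share. Slc5a9, a sodium-coupled sugar transporter 16.5 kb before Skint8, fell from 13.9 ± 1.71 to 1.16 ± 0.0987 CPM (SD, n = 3). Its log2 fold change was -3.58 ± 0.15 (SE), at an edgeR adjusted p of 7.70e-07. Pdzk1ip1, a small membrane protein gene 843.7 kb beyond Skint11, fell from 52.8 ± 5.80 to 7.59 ± 1.08 CPM, or -2.80 ± 0.12 (SE) as a log2 fold change, at an edgeR adjusted p of 1.06e-06. Cmpk1, a pyrimidine nucleotide kinase, fell by 0.44 on the log2 scale, at an edgeR adjusted p of 2.08e-04, and its log2 fold change was 0.62 with epithelial scaling. The nearest tested gene beyond Skint11, Trabd2b, had a log2 fold change of -0.16. On the other side Spata6, 90.2 kb from Skint8, had 0.28 at an edgeR adjusted p of 0.0578, Bend5 had 0.22 and the pseudogene Gm12960 had -0.34. Foxd2 had -0.69, or 0.34 with epithelial scaling, and its neighbour Foxd2os -1.50, both with fewer than 50 counts in every library, and Stil and Tal1 had 0.07 and 0.29.

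**Figure D4:**
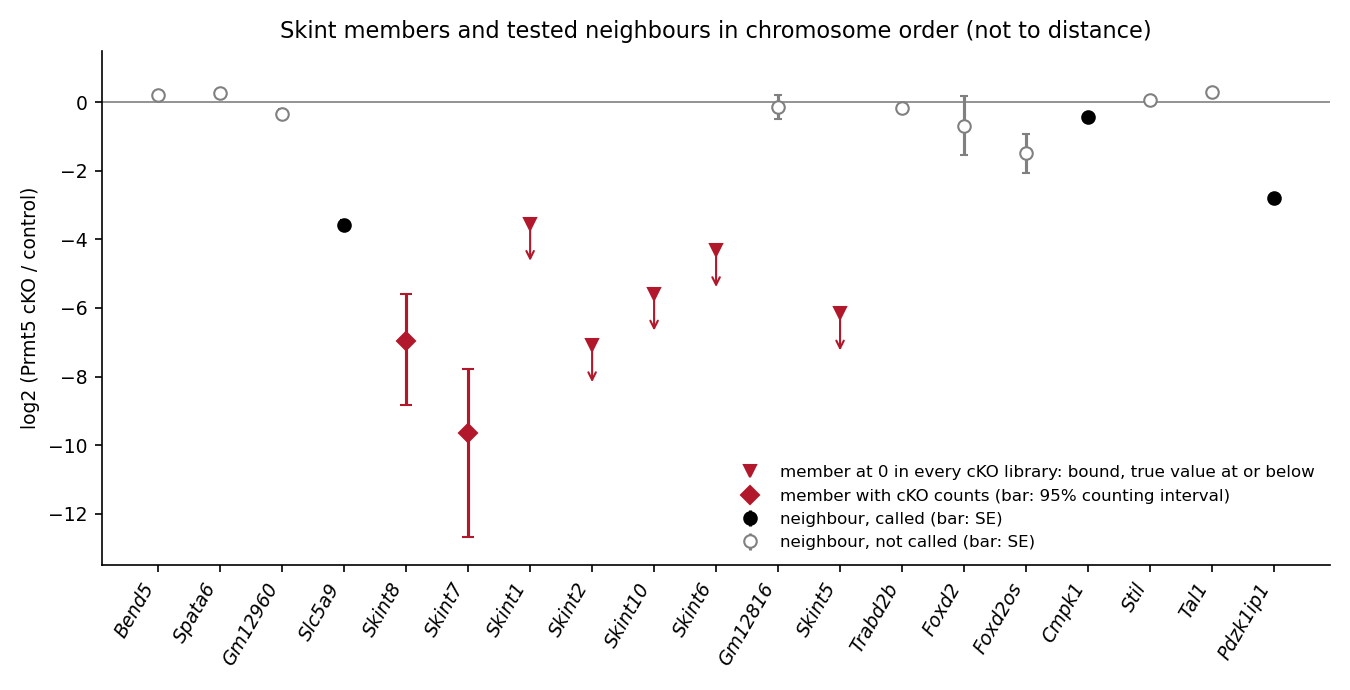
Log2 ratio of Prmt5 cKO to control for the Skint members and the tested genes within 1 Mb, in chromosome order and not to distance; triangles with arrows are bounds, diamonds are ratios of counts with 95% counting intervals, circles are edgeR log2 fold changes with SE. Slc5a9 and Pdzk1ip1 lie at -3.58 and -2.80, and most other neighbours lie near 0. The points of all members but Skint1 lie below both of these genes. The place of the Skint1 triangle is a bound that depends on its low control counts. Whether Skint1 fell less than Slc5a9 can therefore not be read from it.

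The genes whose profile over the 6 libraries was most like the mean profile of the members were ranked among 15468 genes. Likeness was the Euclidean distance between log2 CPM values, each relative to the gene's control mean. The nearest was Aadacl2, an arylacetamide deacetylase-like gene, at a distance of 0.457, which went from 24.0 ± 2.24 to 0.278 ± 0.0416 CPM (SD, n = 3). Next came Ano9, an anoctamin family membrane protein, at 0.480, with 53.6 ± 5.33 CPM in the controls and 0.794 ± 0.175 CPM in the cKO. Krt10, the keratin of suprabasal keratinocytes, followed at 0.523 with 7688 ± 1286 and 114.7 ± 21.0 CPM. Serpinb3c, a protease inhibitor, and Alox12b, a lipoxygenase of the epidermal barrier, were at 0.548 and 0.633. Their control to cKO ratios of CPM were 62.6 and 58.8, against 86.3 for Aadacl2. The members' own distances from their mean profile ran from 0.875 for Skint10 to 3.41 for Skint1, so every member lay farther from it than the genes named here. For scarce genes log2 CPM depends on the small constant added before taking logs. The cKO part of the mean profile, and with it the ranking, therefore depends on that constant as well. Likeness here is set by the contrast between the groups, which the choice of members used.

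Markers of other skin cells were compared beside the family. For the counts of genes that follow, 19.6% of all genes tested were lower in the cKO and 16.3% higher. All 10 suprabasal keratinocyte genes fell. Their median log2 fold change was -4.48, against -0.01 for all genes tested. Krt1, the suprabasal partner of Krt10, stood at -8.09, Lor, the cornified envelope protein loricrin, at -6.69 and Ivl, the envelope protein involucrin, at -4.85. Tgm1, a transglutaminase, changed least of the list, at -1.24. Their summed CPM went from between 14599 and 20269 to between 383 and 471. Of 8 basal keratinocyte genes 6 fell and the integrin genes Itga6 and Itgb4 did not pass the test, for a median of -0.97. The hemidesmosome collagen gene Col17a1 stood at -3.10 and the keratin Krt15 at -2.46. Krt5, the most abundant, stood at -0.66, and at 0.40 with epithelial scaling. Of the 15 epithelial genes 12 fell, St14 rose by 0.70 and 2 did not pass. The part of these cell changes in the Skint result was not tested beyond the epithelial scaling given above.

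Markers of dermis, muscle and vessels were higher in the cKO. All 6 dermal fibroblast genes, all 6 skeletal muscle genes and all 6 endothelial genes rose, where 16.3% of all genes tested were higher. Their median log2 fold changes were 0.47, 0.95 and 0.38. Summed fibroblast CPM went from between 34638 and 43761 to between 52650 and 70869, muscle CPM from between 2178 and 3096 to between 5294 and 5337, and endothelial CPM from between 549 and 629 to between 701 and 788. Of 6 macrophage and leukocyte genes C1qc, Mrc1 and Tyrobp rose and 3 did not pass. The Tyrobp call was lost in 5 of 13 alternatives, among them without control 1, control 2, cKO 1 or cKO 3. The list went from between 258 and 337 to between 356 and 404 CPM. CPM values are relative to the rest of the library, so more RNA from these cells and less from the epithelium cannot be told apart. Their part in the fall of the Skint genes was not tested.

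**Figure D5:**
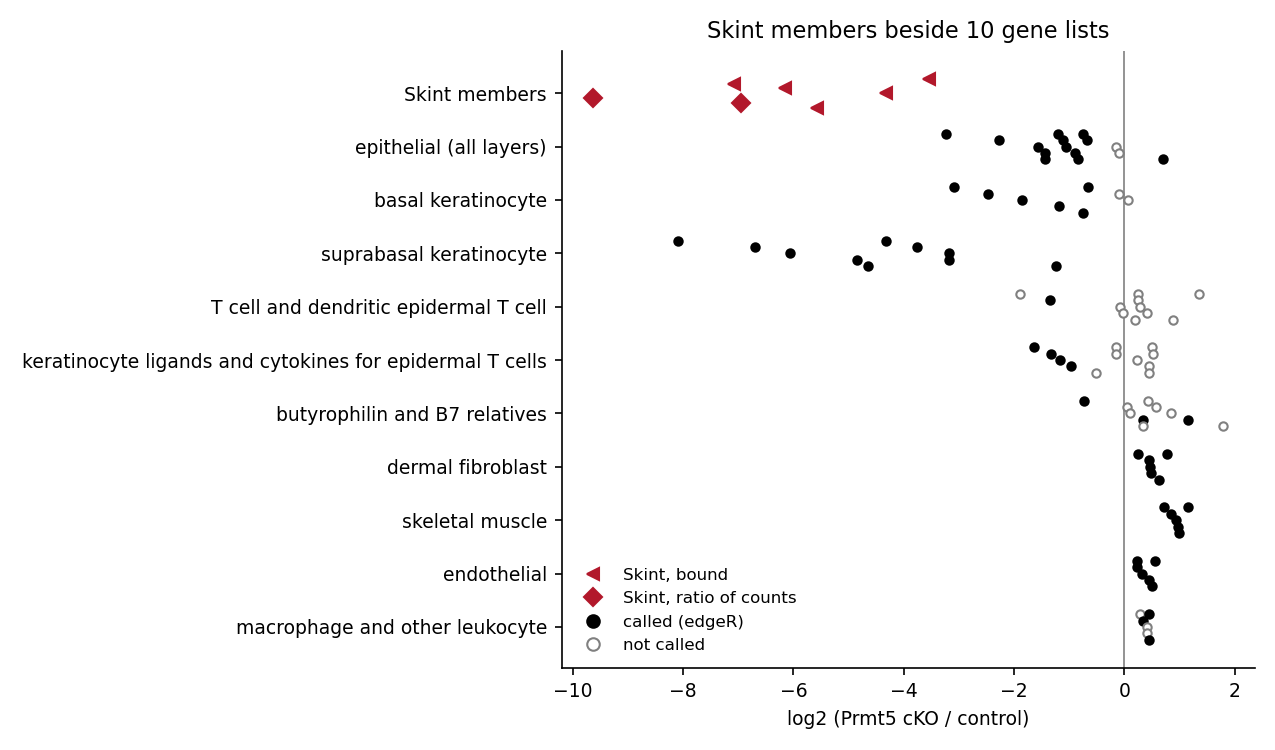
Log2 ratio of Prmt5 cKO to control for the Skint members and for each tested gene of 10 lists; red triangles are bounds, red diamonds ratios of counts, black circles genes past an adjusted p of 0.05 by edgeR and open circles the rest. The suprabasal list lies between -8.09 and -1.24, and the T cell list scatters on both sides of 0. The place of a bound depends on the gene's control level, so no closeness between the Skint members and a list is read from it.

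Receptor genes of the T cells that Skint1 is known to select had few counts in either group. Trgv5 and Trdv4, the variable segments of the dendritic epidermal T cell receptor, were near the floor. Trgv5 had no control count and 1, 0 and 0 cKO counts, and Trdv4 had 3, 0 and 0 counts in each group. Trdc, the delta constant region, had control counts of 12, 4 and 5 and cKO counts of 9, 3 and 0, and Cd3e, a chain of the receptor complex, 0, 6 and 6 against 12, 2 and 2. Trgc1, a gamma constant region, had control counts of 6, 0 and 0 and cKO counts of 0, 14 and 19. Groups overlapped for each of these genes. Cd3g and Cd247, other chains of the complex, had groups in CPM that did not overlap, in opposite directions. Cd3g had control counts of 14, 21 and 29 and cKO counts of 0, 14 and 6, a log2 fold change of -1.90 at an edgeR adjusted p of 0.126. Cd247 had control counts of 14, 15 and 7 and cKO counts of 25, 25 and 20, a log2 fold change of 0.89 at an edgeR adjusted p of 0.122. Groups did not overlap either for Itgae, a gene of the list outside the receptor complex. Its control counts were 21, 25 and 0 and its cKO counts 23, 39 and 53, a log2 fold change of 1.35 at an edgeR adjusted p of 0.225. Cd3g, Cd247 and Itgae did not pass the test at this depth. Of 20 genes in the T cell list 11 were tested, and Cd3d and the chemokine gene Xcl1 were at 0 throughout. The most abundant, Fcer1g, a signalling chain that myeloid cells also make, was 28.9 ± 1.76 CPM in the controls and 35.0 ± 5.12 CPM in the cKO. Only Ccr10, a skin-homing chemokine receptor, fell, from 0.862 ± 0.313 to 0.340 ± 0.107 CPM at an edgeR adjusted p of 0.0323. That call was lost in 6 of 13 alternatives, among them without control 2, cKO 2 or cKO 3. Over all genes tested 19.6% were lower. The list summed to between 68.7 and 80.9 CPM in the controls and between 80.9 and 94.99 CPM in the cKO, with a median log2 fold change of 0.24. Its part in the Skint result was not tested.

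Other keratinocyte signals to epidermal T cells were mixed. Of 12 such genes 4 fell and 8 did not pass, and the median log2 fold change was -0.15. Over all genes tested 19.6% were lower. H60c, a stress ligand of the activating receptor encoded by Klrk1, went from 45.9 ± 15.8 to 14.7 ± 1.25 CPM (SD, n = 3), or -1.64 ± 0.24 (SE) as a log2 fold change, at an edgeR adjusted p of 9.48e-04. Cxadr, the keratinocyte adhesion molecule that engages an epidermal T cell costimulator, fell by 1.17 on the log2 scale at an edgeR adjusted p of 1.78e-05, and stood at -0.10 with epithelial scaling, where the call was lost. Il15ra, which presents interleukin-15, fell by 0.96, but stood at 0.094 with epithelial scaling. Il15, a growth factor of epidermal T cells, went from 3.90 ± 2.03 to 1.55 ± 0.490 CPM at an edgeR adjusted p of 0.0452, although its groups overlapped and the call was lost in 9 of 13 alternatives. Plxnb2, the most abundant of the list, measured 488.0 ± 3.22 and 442.3 ± 21.4 CPM and did not pass. Each of these falls was smaller on the log2 scale than the lowest Skint bound, that of Skint1.

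The closest relatives outside the family were mostly not called. Of 18 butyrophilin and B7 genes 10 were tested, and Btn1a1, Btnl1, Btnl4, Btnl6 and Pdcd1lg2 were at 0 in all 6 libraries. Icosl, a costimulatory ligand, fell by 0.73 at an edgeR adjusted p of 1.75e-04, but its log2 fold change was 0.33 with epithelial scaling. Cd80, another costimulatory ligand, rose by 1.16 at an edgeR adjusted p of 0.00331. Cd276, the most abundant at 76.4 ± 2.09 CPM in the controls, rose by 0.33, a call lost in 5 of 13 alternatives. The remaining 7 did not pass, among them Btnl9, a butyrophilin-like gene with control counts of 451, 374 and 339 and cKO counts of 413, 570 and 411. The median log2 fold change of the list was 0.38. Nothing is read from the counts of 1 lower and 2 higher, since over all genes tested 19.6% were lower and 16.3% higher.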

How the data were processed

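Whole-number counts per gene for 6 libraries were deposited by the authors. Per the labels' protocols these were TruSeq stranded mRNA libraries sequenced on a NovaSeq, and the tools in the submitters' processing notes are STAR, StringTie and DESeq2, with mm10. How counts were made, and on which annotation, is not given in the sources used here. Counts summed to between 35667634 and 66122667 per library. Genes with a count of 3 outnumbered those with a count of 2 in every library, so a count may be less than 1 read. Intervals and floors cover counting error alone and leave out variation between embryos, so they may be too narrow for these reasons. Log2 fold changes and p-values of the deposited DESeq2 table come from the authors. The authors' deposited Sleuth effects are on a natural log scale (median ratio to the log2 values 0.677 over 4831 genes), with q-values beside them. No p-value of theirs is printed, and the members' effects in the authors' deposited Sleuth table ran from -5.32 to -2.34.

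In this work edgeR 4.0.16 (R 4.3.3) kept 19227 genes by filterByExpr, scaled libraries by TMM and compared the groups by the quasi-likelihood test with no other term and Benjamini-Hochberg adjustment over all genes at a threshold of 0.05. The 7 members passed the filter. For genes at 0 in all cKO libraries the fold is a lower bound from 3 counts per library. Ratios of counts have exact conditional intervals. Members and the 10 gene lists were chosen with earlier results of these data known. Beside Skint genes and Prmt5, named genes are the tested neighbours, up to 4 called genes with the largest change and the most expressed gene of each list, all genes where a count is 5 or fewer, and the 5 nearest profiles. Defining T cell receptor genes, Cd3g, Cd247, Itgae, Itga6, Itgb4, Tgm1 and Btnl9 were named after their values were seen. Alternatives were RLE, upper-quartile and epithelial scaling, no filter, DESeq2 1.42.0, a replicate block, a threshold of 0.01 and leaving out each library. The steps were tested on simulated counts. Same-numbered libraries did not deviate together (correlations -0.0790, -0.0432 and -0.0617). So few libraries cannot exclude a pairing, but the labels name none and none was assumed.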

Additional observations from a re-analysis of the deposited data

How the results depend on the processing

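All 7 Skint members had groups that did not overlap in every setting in which this was computed. Members were chosen through their control counts, and for the 5 with no cKO count no setting could make the groups overlap. Nothing is therefore read from it. The log2 ratio of mean CPM ranged over the alternatives from -9.53 to -8.40 for Skint7 and -7.01 to -5.81 for Skint8. Without cKO 1 these genes had no cKO count, and the floor gave bounds of -7.48 and -5.87. The log2 bounds of the other members ranged from -7.14 to -6.02 for Skint2, -6.30 to -5.09 for Skint5, -5.85 to -4.52 for Skint10, -4.54 to -3.23 for Skint6 and -3.61 to -2.48 for Skint1. Scaling to the 15 epithelial genes moved the median of all genes to 1.05, lower genes from 3767 to 730 and higher genes from 3139 to 15838. With it 5 epithelial genes were lower and 5 higher, 3 basal genes lower and 4 higher, 0 T cell genes lower and 9 higher, 1 ligand gene lower and 7 higher, 0 butyrophilin and B7 genes lower and 9 higher, 6 leukocyte genes higher and 8 neighbours higher. Log2 fold changes that turned positive with it were 0.62 for Cmpk1, 0.34 for Foxd2, 0.91 for Gm12816, 0.72 for Gm12960, 0.33 for Icosl, 0.094 for Il15ra, 0.40 for Krt5, 0.92 for Plxnb2 and 0.90 for Trabd2b. With a threshold of 0.01 there were 1825 higher genes, 0 lower T cell genes and 1 higher butyrophilin or B7 gene. Upper-quartile scaling gave 1 higher basal gene, 2 T cell, 4 butyrophilin and B7, 5 leukocyte and 3 neighbouring genes. DESeq2 gave 3 T cell, 4 butyrophilin and B7, 6 leukocyte and 1 neighbouring gene higher, and RLE scaling 1 neighbouring gene. The replicate block, for numbers not known to pair the embryos, left 0 lower T cell genes and 6098 called genes against 6906. Leaving out each library gave 0 to 1 lower and 0 to 2 higher T cell genes, 1 to 4 higher butyrophilin and B7 genes, 2 to 5 higher leukocyte genes and 0 to 1 higher neighbours. Foxd2 passed the test without cKO 2, at a log2 fold change of -2.82, and Foxd2os without control 3. Apart from the epithelial scaling and the stricter threshold, whose construction changes the reference or the limit, the cause was not tested. Depth limits the T cell receptor genes and Skint11, whose counts lie near the floor.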
